A study of Mus musculus with 4 samples.

Results

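Triglyceride storage and breakdown were examined in tumour-associated macrophages through 10 genes: G0s2, the lipase gene Pnpla2 with its regulators Abhd5 and Hilpda, the droplet coat gene Plin2, the later lipases Lipe and Mgll, the lipoprotein lipase gene Lpl, and the synthesis genes Dgat1 and Dgat2. They were taken by name from 54532 genes in the deposited table. The 2 MK-8931 libraries came from macrophages labelled as treated with MK-8931, also named verubecestat, which inhibits the beta-secretase BACE1, and the 2 control libraries from macrophages labelled as controls. In both groups the cells were sorted as CD45+/Gr1-/CD11b+/DAPI- from glioblastoma xenografts, from hosts labelled only GBM mice, with no allele, host strain or age given. The labels' protocols describe 3 days of treatment, with vehicle as the alternative, and RNA taken from glioma stem cells, which is at odds with their sorted-macrophage entries, so how the drug reached the macrophages is not settled. The set was chosen by gene name with results of this comparison known, above all the G0s2 counts of the 4 libraries. Differences of the 10 genes between the groups are therefore given as a description, with fitted values and errors and without p-values.

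A lipid droplet is a core of neutral lipid, mostly triglyceride and cholesterol ester, under a coat of proteins. Fatty acids enter the core through the acyltransferases DGAT1 and DGAT2 and leave it through adipose triglyceride lipase (the product of Pnpla2), hormone-sensitive lipase (Lipe) and monoglyceride lipase (Mgll), which act in that order. The first of these lipases is activated by ABHD5 and inhibited by the small proteins G0S2 and HILPDA. Macrophages in lipid-rich or hypoxic tissue are known to store droplets, and PLIN2 is their usual droplet coat protein.

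Total counts were between 18257930 and 20179875 per library, with 18258 to 20075 genes detected. The 12 macrophage markers looked at, such as Csf1r, Adgre1 and Cd68, were present in each library, at 73.0 to 5862 CPM (counts scaled to library size, with TMM factors of 0.971 to 1.01). Of these, 1 rose in edgeR's quasi-likelihood test, Itgam, which encodes the CD11b of the sort, and 0 fell, beside 0.861% and 0.136% of all genes tested. At an unadjusted p under 0.05, 2 were higher and 4 lower, with 1 and 1 in DESeq2 and 1 and 0 in limma-voom. In both MK-8931 libraries 3 of the 12 lay above both controls and 6 below, beside 21.2% and 20.0% of all genes tested. C1qa had the lowest log2 fold change of the 12 (−0.60, SE 0.19). Of 7 tested microglia markers 0 rose and 0 fell in edgeR's quasi-likelihood test, with a median of −0.37. In both MK-8931 libraries 5 of them lay below both controls, beside 20.0% of all genes tested. Gpr34 had the lowest log2 fold change (−1.13, SE 0.23, adjusted p = 0.0609). Siglech, with few counts, lay above both controls (0.54, SE 0.75), and Tmem119 overlapped them (−0.12, SE 0.14). For that list 0 were higher and 4 lower at an unadjusted p under 0.05, 0 and 2 in DESeq2, and 0 and 0 in limma-voom. The part of microglia in the differences of the 10 genes was not tested. Nothing in the labels says that the libraries are from different animals. Errors and p-values therefore cover the spread among these 4 samples and no more, and that spread may be technical. All 10 genes passed the filter on low counts, G0s2 only through the MK-8931 libraries, as it had 0 and 7 counts in the controls. Of the 10 genes, 2, G0s2 and Lpl, lay past an adjusted p of 0.05 in edgeR's quasi-likelihood test, both higher with MK-8931. Among the 13932 genes tested, 0.998% were past that threshold in either direction and 0.861% were past it and higher. Since the genes were chosen with this comparison in view, nothing is read from that count. It fell to 1 without MK-8931 2 (G0s2) and to 1 with limma-voom (Lpl). It was 3, with Dgat1 added, with no filter on low counts, with the replicate block, with DESeq2 and without either control, and without MK-8931 1 it was 2, with Dgat1 in place of Lpl. Of the 10 genes, 3 lie on chromosome 7 (Pnpla2, Lipe and Dgat2) and 2 on chromosome 6 (Hilpda and Mgll), and none of them overlaps another.

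G0s2, on the minus strand of chromosome 1 (193272161 to 193273217, GRCm38), was close to absent from the controls and present with MK-8931. It had 299 counts in MK-8931 1 and 628 in MK-8931 2, against 0 in control 1 and 7 in control 2. In FPKM, the count scaled to gene length and library size, its level was 17.5 and 38.9 in the MK-8931 libraries, against 0 and 0.412 in the controls. Both MK-8931 libraries stood above both controls, and MK-8931 2 was 2.23 times as high as MK-8931 1 in CPM. For the 0 in control 1, the exact 95% interval of counting error reaches 0.199 CPM, and 3 counts there would be 0.162 CPM. The ratio of the summed counts, scaled to library size, was 133, with an exact 95% interval of 64.5 to 333 that covers counting error only. The fitted log2 fold change was 7.03 (SE 0.70). That value depended on single libraries and on the tool, at 6.08 without control 1, 6.33 without MK-8931 2 and 7.81 with limma-voom. No fold is given without control 2, because the control that remains had no count.

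**Figure D1:**
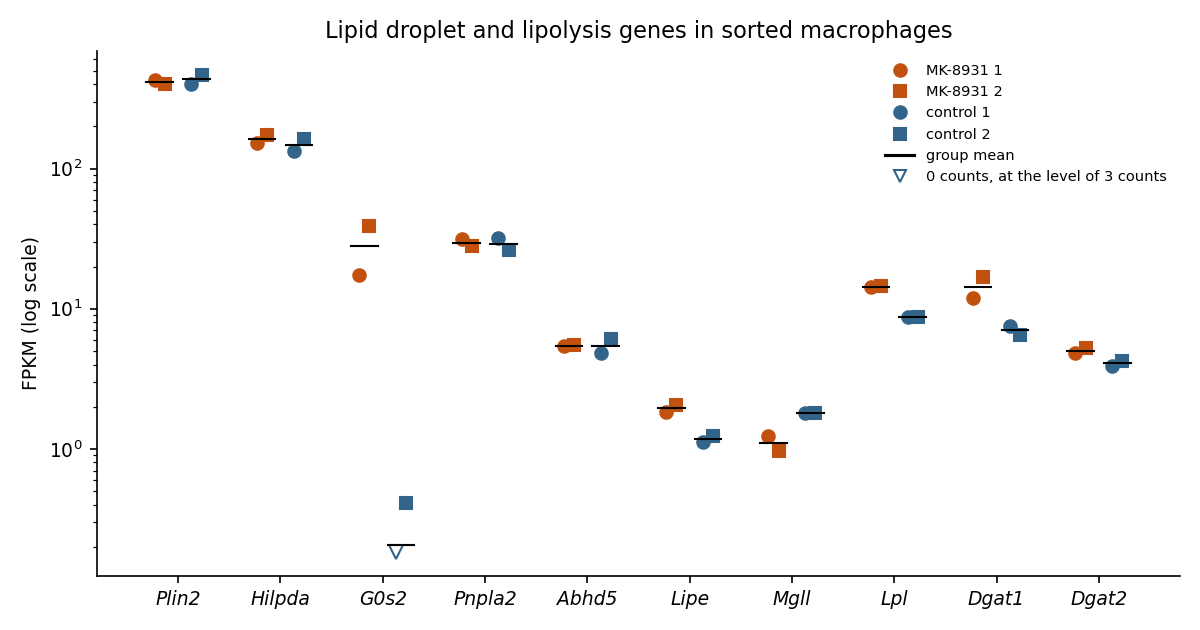
FPKM of the 10 genes in each library on a log axis, with MK-8931 libraries (orange) left of controls (blue) and a bar at each group mean. G0s2 is at 17.5 and 38.9 FPKM with MK-8931, against 0.412 FPKM in control 2 and no count in control 1, which is drawn at the level of 3 counts, while Plin2 lies between 401 and 468 FPKM in the 4 libraries.

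The promoter of G0s2 is shown beside that of Hilpda, since both encode small inhibitors of the same lipase and only the first of them differed widely between the groups. Both are from RefSeq on GRCm38.p6, the deposited coordinates being those of GRCm38, and run up to the first base of the deposited gene. G0s2 is chr1:193273218-193273438 on the minus strand, after 29 bases before the RefSeq start were left out because they lie inside the deposited gene. Hilpda is chr6:29272238-29272487 on the plus strand. Capitals mark CACCC, a core letter run bound by Krüppel-like factors, and GGGCGG, a core of Sp1-type sites, each searched on both strands.
G0s2: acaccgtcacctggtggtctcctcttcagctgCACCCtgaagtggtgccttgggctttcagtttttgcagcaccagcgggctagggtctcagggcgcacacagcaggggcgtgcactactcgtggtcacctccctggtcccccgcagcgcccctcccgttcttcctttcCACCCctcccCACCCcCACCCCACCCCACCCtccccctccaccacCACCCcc
Hilpda: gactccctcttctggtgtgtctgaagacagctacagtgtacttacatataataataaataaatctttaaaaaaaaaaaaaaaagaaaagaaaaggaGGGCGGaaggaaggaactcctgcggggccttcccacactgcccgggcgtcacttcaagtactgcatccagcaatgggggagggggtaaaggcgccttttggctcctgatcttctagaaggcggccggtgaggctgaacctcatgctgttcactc
The G0s2 stretch holds 7 CACCC matches and the Hilpda stretch none. Those that begin 81, 71, 65, 60 and 55 bases before the RefSeq start lie in a single C-rich run, so the 7 matches are not 7 separate sites. Of 32851 RefSeq promoter windows of 250 bases, 52.0% hold CACCC at least once and 0.0974% hold it at least 7 times, a motif and a count chosen after the letters were seen. GGGCGG occurs once in the Hilpda stretch, once among the bases left out for G0s2, and in 32.7% of windows. The hypoxia-response core ACGTG (16.6% of windows) and TATAAA (12.4%) are in neither stretch, although ACGTG occurs once before a second RefSeq start of Hilpda that lies inside the deposited gene. These matches describe letters only. The RefSeq table held 7 of the 10 genes, and Lpl, Dgat1 and Dgat2 are not shown.

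G0s2 lies inside the row of Lamb3, a laminin subunit gene on the opposite strand, and the sources used here do not say whether counting used strand. In GENCODE M21, no exon base is shared, so that G0s2 lies between Lamb3 exons. Lamb3 had 41 and 96 counts in the MK-8931 libraries, against 8 and 9 in the controls. It thus moved with G0s2, at 13.7 and 15.3 Lamb3 counts per 100 G0s2 counts with MK-8931. In control 2 there were 129 Lamb3 counts per 100 G0s2 counts, and control 1 had no G0s2 count to set against its 8. The fitted Lamb3 difference was 3.02 on the log2 scale (SE 0.63, adjusted p = 0.0717). Whether reads of one gene were counted for the other was not tested.

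Neutrophil markers were set beside G0s2. Their list was chosen with earlier results of these data known, so nothing is read from how many of them rose. Of 20 listed markers, 15 were tested. In edgeR's quasi-likelihood test 12 of these rose, such as Cxcr2 and S100a9, and 0 fell, beside 0.861% and 0.136% of all genes tested. At an unadjusted p under 0.05, 13 were higher and 0 lower, DESeq2 called 12 higher and 0 lower, and limma-voom 9 and 0. The summed level of the list was 1247 and 1946 CPM with MK-8931, against 504 and 461 CPM in the controls. Both MK-8931 libraries lay above both controls, and MK-8931 2, the library with more G0s2, was the higher. Most of the sum came from Mmp9 and Csf3r, which macrophages can express too, with Mmp9 at 632 and 939 CPM with MK-8931, against 375 and 349 CPM in the controls. The sort left out Gr1-positive cells, which takes in neutrophils. Ly6g, the neutrophil part of the Gr1 antigen, had no count except 14 in MK-8931 2, and the granule protease gene Elane had none in any library. Neither passed the filter, and nothing about neutrophils is read from these 2 genes. Retnlg, among the 12 that rose, was at 7.80 and 10.4 CPM with MK-8931, against 1.24 and 0.664 CPM in the controls. Set against the counts of the whole list, G0s2 amounted to 1.23% and 1.75% with MK-8931, against 0% and 0.0776% in the controls. These percentages depend on the markers taken as the base, here mostly Mmp9 and Csf3r. Cxcr2 alone had 1035 and 1369 counts with MK-8931, against 29 and 16 in the controls. S100a9 had 1712 and 4555 counts with MK-8931, against 28 and 95 in the controls. The part of neutrophils in the G0s2 difference was not tested, and in bulk RNA more cells of a type cannot be told apart from more RNA per cell.

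**Figure D2:**
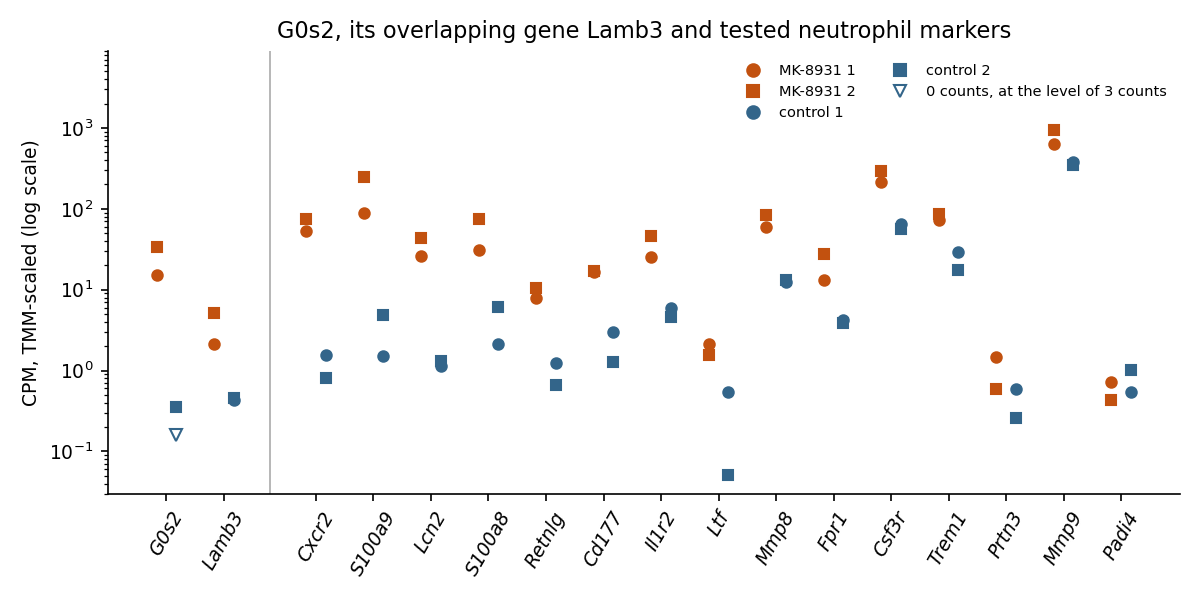
CPM on a log axis for G0s2, the overlapping gene Lamb3 and the 15 tested neutrophil markers, with MK-8931 libraries (orange) left of controls (blue). G0s2 and Lamb3 are higher in both MK-8931 libraries, as are 14 of the 15 markers, beside 21.2% of all genes tested. Padi4 overlaps between the groups. The markers were chosen with earlier results of these data known.

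The 5 genes whose pattern over the 4 libraries was nearest to that of G0s2, by Euclidean distance between centred log2(CPM + 0.5) values, were Stfa2l1, Hdc, S100a9, Lcn2 and Cxcr2. Their distances ran from 0.55 to 1.11 among 9699 genes compared, which averaged at least 5 CPM over the 4 libraries. All 5 were under 5 CPM in both controls and met that limit through the MK-8931 libraries. Of the 5, 3 are in the neutrophil list. That list was chosen with earlier results of these data known, so nothing is read from this count. Stfa2l1 has near-identical copies, so its counts are uncertain. Hdc, which encodes histidine decarboxylase, was at 77.7 and 105 CPM with MK-8931, against 1.56 and 2.09 CPM in the controls. The order rests on the measure, since 2 of the 5 were still among the nearest 5 with a pseudocount of 2 and 0 with a Pearson correlation.

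The lipase that G0S2 inhibits and the other regulators of that lipase did not separate the groups. Pnpla2 (chromosome 7, 141455198 to 141460743, plus strand) was at 31.2 and 27.8 FPKM with MK-8931, against 31.9 and 26.0 FPKM in the controls. Abhd5, the activator (chromosome 9, 122351608 to 122381524, plus strand), was at 5.40 and 5.52 FPKM with MK-8931, against 4.81 and 6.05 FPKM in the controls. For both genes both MK-8931 values lay between those of the controls. The log2 fold changes were 0.03 (SE 0.15) for Pnpla2 and 0.02 (SE 0.17) for Abhd5. Abhd5 went to −0.14 without control 1 and 0.19 without control 2, and Pnpla2 to 0.19 without control 1 and −0.11 without control 2, so single controls set the sign of both. An antisense gene covers 950 exon bases of Abhd5 but had at most 4 counts in a library.

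Hilpda, the hypoxia-induced inhibitor of the same lipase (chromosome 6, 29272488 to 29275446, plus strand), was abundant in each library. It was at 153 and 175 FPKM with MK-8931, against 134 and 162 FPKM in the controls, and the groups overlapped. Its log2 fold change was 0.15 (SE 0.14). The 2 inhibitor genes thus differed in level within the controls, where Hilpda averaged 148 ± 19.4 FPKM and G0s2 0.206 ± 0.291 FPKM (SD, n = 2). Per library, the ratio of G0s2 to Pnpla2 in FPKM was 0.560 and 1.40 with MK-8931, against 0 and 0.0158 in the controls. For Hilpda to Pnpla2 the ratio was 4.89 and 6.28 with MK-8931, against 4.21 and 6.22 in the controls. G0s2 was therefore below Hilpda in FPKM in each of the 4 libraries.

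Plin2, the droplet coat gene (chromosome 4, 86648386 to 86670060, minus strand), had the highest level of the 10. It was at 427 and 401 FPKM with MK-8931, against 404 and 468 FPKM in the controls. Among all genes of the table it ranked 80 and 98 by FPKM in the MK-8931 libraries, and 82 and 84 in the controls. The groups overlapped, with a log2 fold change of −0.07 (SE 0.13) that was 0.04 without control 2. Its ratio to Hilpda in FPKM was 2.80 and 2.29 with MK-8931, against 3.00 and 2.89 in the controls.

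The later lipases had low levels and differed between the groups in opposite directions. Lipe, which encodes hormone-sensitive lipase (chromosome 7, 25379527 to 25398710, minus strand), was at 1.84 and 2.05 FPKM with MK-8931, against 1.12 and 1.24 FPKM in the controls. Both MK-8931 values were above both controls, with a log2 fold change of 0.73 (SE 0.24). Mgll, the monoglyceride lipase gene (chromosome 6, 88724412 to 88828360, plus strand), was at 1.24 and 0.967 FPKM with MK-8931, against 1.79 and 1.81 FPKM in the controls. It was the one gene of the 10 with both MK-8931 libraries below both controls, with a log2 fold change of −0.69 (SE 0.27). These levels rest on few reads, 91 to 179 counts per library for Mgll and 123 to 224 for Lipe. Antisense genes share 918 exon bases with Lipe and 167 with Mgll, but had at most 7 and 3 counts in a library.

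Adipocytes are the cells best known for Lipe and Lpl, and transcripts of their markers stood out in 1 library. All 10 adipocyte markers listed, among them Adipoq, Plin1 and Lep, were highest in MK-8931 1. Their summed level was 14.6 and 1.96 CPM with MK-8931, against 2.15 and 1.38 CPM in the controls. Only Cfd passed the filter, at 4.67 and 0.544 CPM with MK-8931, against 1.02 and 0.971 CPM in the controls, which was most of the sum in control 2. Adipoq had 44 and 4 counts with MK-8931, against 1 and 0 in the controls. In the 3 libraries other than MK-8931 1, 3 to 6 of the 10 had no count, Lep and Adrb3 in all 3. Of the 10, 4 (Plin1, Plin4, Cidec and Adrb3) are also in the lists of lipid handling given further on. Lipe was at 10.9 CPM in MK-8931 1 and 12.2 CPM in MK-8931 2, against 6.62 and 7.31 CPM in the controls. Without MK-8931 1 the log2 fold change was 0.80 for Lipe and 0.72 for Lpl. The part of adipocyte transcripts in these differences was not tested.

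**Figure D3:**
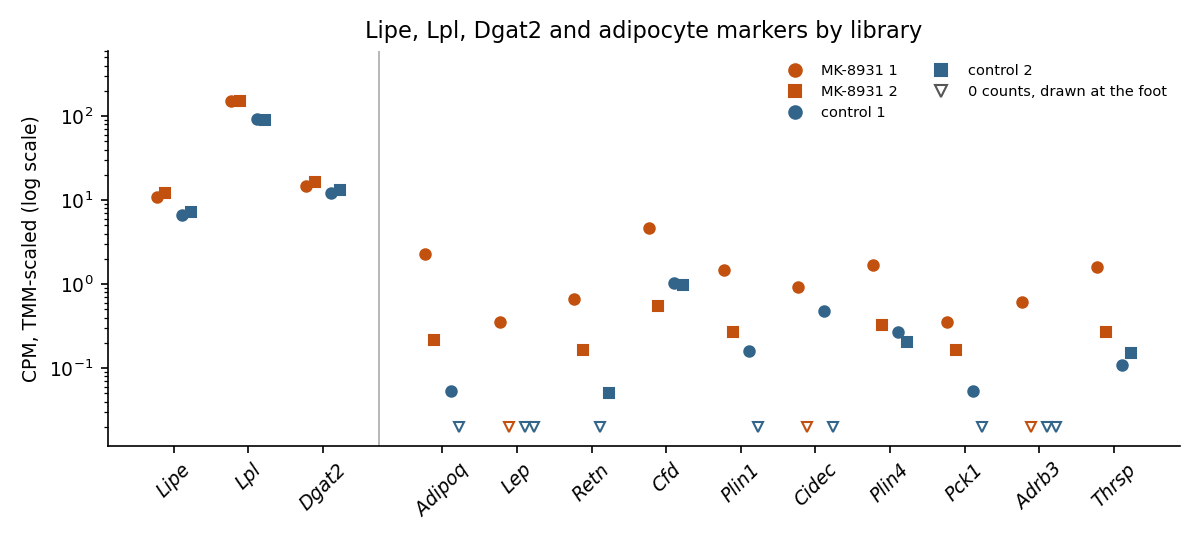
CPM on a log axis for Lipe, Lpl and Dgat2 (left of the line) and 10 adipocyte markers (right), with MK-8931 libraries (orange) left of controls (blue) and libraries without a count drawn at the foot. All 10 markers are highest in MK-8931 1, at a summed 14.6 CPM for that library. Lipe is at 10.9 and 12.2 CPM and Lpl at 150 and 152 CPM in the MK-8931 libraries.

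Lpl, whose product frees fatty acids from triglyceride in lipoproteins outside the cell (chromosome 8, 68880491 to 68907448, plus strand), was at 14.2 and 14.4 FPKM with MK-8931, against 8.79 and 8.70 FPKM in the controls. The replicates lay close together and the groups were apart, with a log2 fold change of 0.72 (SE 0.12), a fold of 1.65. The log2 fold change was 0.72 without MK-8931 1 and 0.69 without MK-8931 2. As Lpl was chosen with this comparison in view, nothing is read from its place past the threshold.

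Of the synthesis genes, Dgat1 (chromosome 15, 76502015 to 76511953, minus strand) was at 11.9 and 16.8 FPKM with MK-8931, against 7.50 and 6.50 FPKM in the controls. Both MK-8931 libraries were above both controls, with a log2 fold change of 1.05 (SE 0.20), next in size to that of G0s2. It was 0.77 without MK-8931 2, the library in which Dgat1 was highest. Dgat2 (chromosome 7, 99153658 to 99182719, minus strand), which encodes an enzyme for the same step, was at 4.81 and 5.23 FPKM with MK-8931, against 3.89 and 4.27 FPKM in the controls, a log2 fold change of 0.31 (SE 0.20). The ratio of Dgat1 to Dgat2 in FPKM was 2.48 and 3.21 with MK-8931, against 1.93 and 1.52 in the controls.

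**Figure D4:**
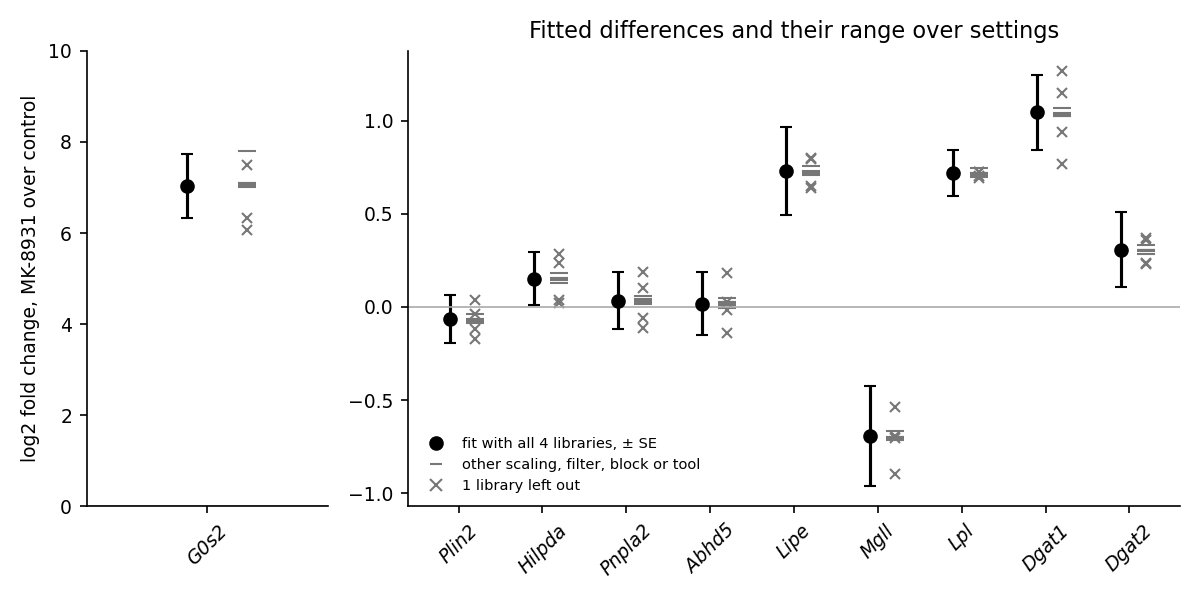
Log2 fold change of MK-8931 over control for the 10 genes, with G0s2 on its own axis. Black points are the fit to all 4 libraries with SE, dashes are other scalings, filters, the replicate block or tools, and crosses leave out 1 library each. G0s2 is at 7.03, Mgll at −0.69, and Plin2, Hilpda, Pnpla2 and Abhd5 lie between −0.07 and 0.15 in the fit to all libraries.

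Over the 10 genes, 5 had both MK-8931 libraries above both controls (G0s2, Dgat1, Lipe, Lpl and Dgat2) and 1 had both below (Mgll). Among all genes tested, 21.2% were above and 20.0% below in this way. The median log2 fold change was 0.23 over the 10 genes, against −0.00297 over all genes tested. The 10 genes were chosen with this comparison in view, so neither these counts nor the median is read as a result. In FPKM the order with MK-8931 was Plin2, Hilpda, Pnpla2, G0s2, Dgat1, Lpl, Abhd5, Dgat2, Lipe and Mgll. The ranges of the 2 libraries overlapped between Pnpla2 and G0s2 and between Dgat1 and Lpl, and the other neighbours were apart. In the controls the order was Plin2, Hilpda, Pnpla2, Lpl, Dgat1, Abhd5, Dgat2, Mgll, Lipe and G0s2, with no overlap between neighbours. G0s2 was thus last in the controls and next after Pnpla2 with MK-8931, and Lipe was above Mgll with MK-8931 and below it in the controls.

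The rest of lipid handling was followed with 10 lists holding 140 genes, of which 111 passed the filter. Of these 0 rose and 1 fell in edgeR's quasi-likelihood test, beside 0.861% and 0.136% of all genes tested. At an unadjusted p under 0.05, 7 were higher and 10 lower. DESeq2 called 2 higher and 1 lower, and limma-voom called 0 and 1. The median over the 111 genes was −0.05. The 1 call was not made when either MK-8931 library was left out. The 12 tested genes of lipolysis signalling, among them the subunits of protein kinase A, had a median of −0.10. In both MK-8931 libraries 7 of them lay below both controls and 1 above, beside 20.0% and 21.2% of all genes tested.

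For the droplet itself, 8 genes of the coat and assembly list were tested and none passed (median −0.02). The smallest p-values belonged to Cav1, the caveolin gene (0.43, SE 0.18, adjusted p = 0.454), and Fitm2, which acts in droplet formation (−0.67, SE 0.30, adjusted p = 0.470). The coat genes Plin1 and Plin4, typical of adipocytes, did not pass the filter. Of 13 genes of glycerolipid synthesis upstream of DGAT, none passed (median 0.03), with Agpat4 at 0.41 (SE 0.15, adjusted p = 0.365) and Agpat3 at −0.37 (SE 0.16, adjusted p = 0.445). Of 11 other neutral lipid hydrolases, none passed (median 0.11), and the smallest p-values were those of Abhd12 (−0.33, SE 0.15, adjusted p = 0.462) and the cholesterol ester hydrolase Nceh1 (−0.24, SE 0.12, adjusted p = 0.524).

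Of 12 tested genes of fatty acid and lipoprotein uptake, none passed (median 0.09). For Scarb1, the HDL receptor gene, the fitted log2 value was 0.53 (SE 0.14, adjusted p = 0.153). Among 7 tested partners of lipoprotein lipase, none passed (median −0.03). They include Furin, a protease that cleaves the lipase (−0.23, SE 0.12, adjusted p = 0.582), and Angptl4, an inhibitor of it (0.21, SE 0.17, adjusted p = 0.753). In cholesterol ester storage, 0 of 7 passed (median −0.06), with Soat2, a cholesterol acyltransferase gene, at 1.35 (SE 0.35, adjusted p = 0.142) and Npc1 at −0.22 (SE 0.13, adjusted p = 0.606).

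Use of fatty acids and the hypoxia response had medians near 0. Of 17 genes of fatty acid oxidation, none passed (median −0.09), with Hadh at −0.45 (SE 0.15, adjusted p = 0.290) and Cpt1a, the gate to mitochondrial oxidation, at −0.28 (SE 0.13, adjusted p = 0.489). Of 8 PPAR receptors and targets, none passed (median 0.02), with Pdk4 at −0.93 (SE 0.40, adjusted p = 0.444) and Ppargc1b at 0.28 (SE 0.25, adjusted p = 0.780). Of 16 hypoxia targets, the class that Hilpda and Plin2 belong to, none passed (median −0.06), with Egln3 at 0.49 (SE 0.15, adjusted p = 0.255) and Higd1a at −0.56 (SE 0.18, adjusted p = 0.276).

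**Figure D5:**
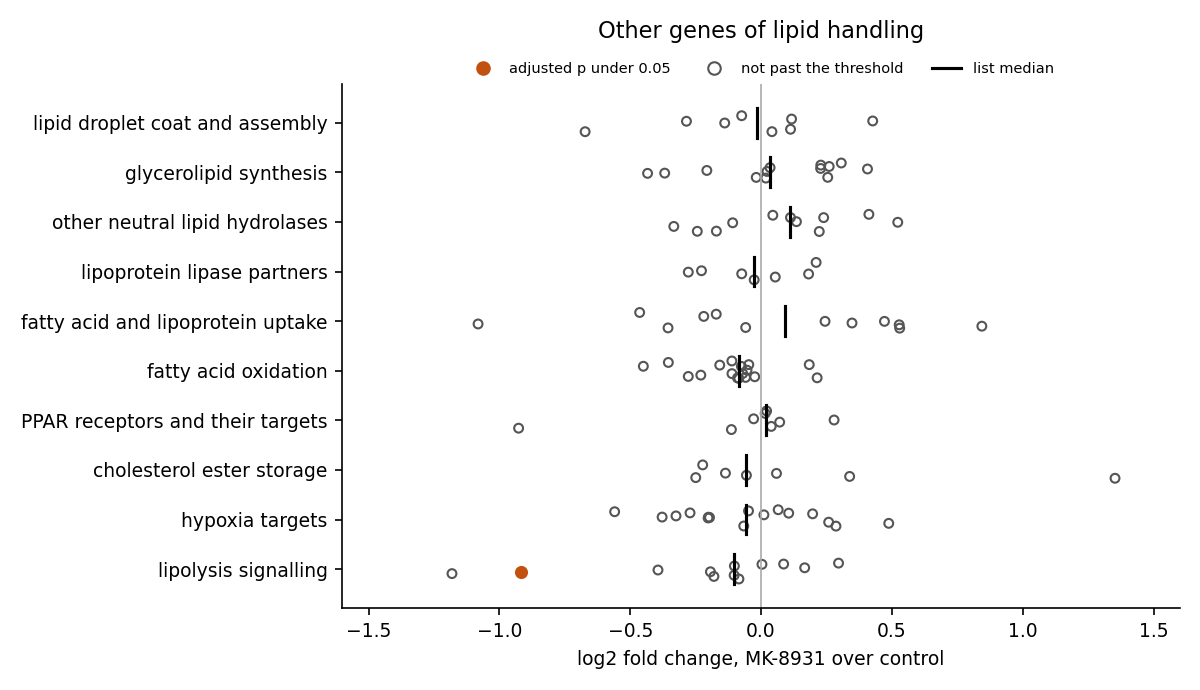
Log2 fold change of MK-8931 over control for the 111 tested genes of the 10 lists, 1 point a gene, with a bar at each list's median. The 1 filled point passed the threshold, and the medians lie between −0.10 and 0.11.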

How the data were processed

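The authors deposited a table with whole-number counts per gene and FPKM values in each library, per the file headers. In genes with over 50 counts, the deposited FPKM was the count divided by gene length and scaled by 1 constant for each library. The submitters' processing notes name CASAVA and mm9, but of 54495 gene identifiers shared with GENCODE M21, 98.3% have the same chromosome, start, end and strand on GRCm38, all 10 genes included. The aligner, counter and strand setting were not given in the sources used here. A further 4 per-library columns were not used here.

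Counts were tested with edgeR 4.0.16 (R 4.3.3), with filterByExpr at a minimum count of 10, TMM scaling and the robust quasi-likelihood F test. It was two-sided, with Benjamini-Hochberg adjustment over 13932 genes and a threshold of 0.05. The SE is the size of the log2 fold change over the root of F. The code was tested on simulated data. Alternatives were DESeq2 1.42.0, limma-voom (limma 3.58.1), DESeq2 size factors or library size alone in edgeR, no filter, the replicate number as a block, and leaving out each library. Libraries of a group differed by more than counting noise (chi-square per degree of freedom 15.7 for MK-8931 and 26.8 for control). A permutation test of 2 against 2 cannot go below p = 0.333, so none was run. Intervals and floors cover counting error only.

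The members and gene lists were chosen with earlier results of these data known. Named beside the 10 genes are the 5 nearest G0s2 among genes of at least 5 CPM on average, without predicted loci, the genes overlapping a member, and from each list up to 2 genes per direction past the threshold or, failing that, the 2 with the smallest p. Genes named beyond these serve as markers and were chosen after their values were seen. Not every gene so chosen is reported here.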

Additional observations from a re-analysis of the deposited data

How the results depend on the processing

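The count of all genes past the threshold depended on the setting. With all libraries it was 120 higher and 19 lower. It was 366 and 176 with no filter on low counts, 468 and 275 with the replicate block, and 242 and 95 with DESeq2, while limma-voom gave 30 lower. Leaving out 1 library gave 85 to 520 higher and 10 to 243 lower, the most without control 1, with 47 lower without control 2 and 10 lower without MK-8931 2. Of the 139 genes, 81 to 136 were called again with 1 library left out. The 2 of the 10 genes past the threshold became 1 with limma-voom, 3 with no filter, the replicate block or DESeq2, and 1 to 3 with a library left out. The genes of the 10 lists that were higher, 0 with all libraries, became 2 with no filter, 3 with the replicate block, 2 with DESeq2 and 0 to 3 with a library left out, and those lower, 1 with all libraries, became 4, 6, 1 and 0 to 5. The log2 fold change of G0s2 was 7.81 with limma-voom and 6.08 to 7.48 with a library left out. That of Lpl was 0.74 with library size alone, 0.70 with no filter and 0.69 to 0.72 with a library left out, and its FPKM ratio was 0.76 on the log2 scale as TPM, against 0.71. With a library left out, Abhd5 ran from −0.14 to 0.19, Pnpla2 from −0.11 to 0.19, Plin2 from −0.17 to 0.04, Dgat1 from 0.77 to 1.26 and Mgll from −0.89 to −0.54. Of the 5 genes nearest G0s2, 2 were shared with a pseudocount of 2 and 0 with a Pearson correlation. The cause of these shifts was not tested. The labels tie the replicate numbers to no shared origin, and no pairing was assumed. With 2 pairs, the replicate differences of the groups correlated at 0.197 over 13932 genes. Depth limits G0s2 in the controls, where 0 and 7 counts set its fold.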
